A study of Mus musculus with 18 samples.

Results

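Mouse erythroblasts (ERY) were profiled by ChIP-seq for H3K27ac and H3K4me3, and the promoters of the same cells are described here by which of these marks they carried. Of the 18 samples of the series, 4 libraries were used for this comparison, 2 of H3K27ac and 2 of H3K4me3, each given as 1 list of peaks. The remaining ChIP libraries, 4 of immature megakaryocytes (iMK), serve below only as a reference. The marrow donors were adult C57BL6 mice, and the methods give them as males. The 4 ERY libraries shared 1 sort, for Ter119+, CD44+ and FSCLow cells that lacked lymphoid (CD4, CD8, IL7Ra, CD45R) and myeloid (CD11b, Ly6g) markers, so they hold cells past the earliest erythroid stages and may hold several stages together. The promoter of a gene was every annotated transcription start site with 1 kb on each side, and a mark was called there when both libraries of that mark had a peak sharing at least 1 bp with it. Of 21938 protein-coding genes, 6152 (28.0%) had both marks, 2360 (10.8%) had H3K27ac alone, 141 (0.643%) had H3K4me3 alone and 13285 (60.6%) had neither. Of 6668 H3K27ac regions over 1 kb from any start site, 98 had both marks.

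H3K4me3 is a trimethylation of histone H3 that is laid down near transcription start sites, above all at promoters rich in CpG dinucleotides, where CpG-binding proteins recruit the methyltransferase complexes. Acetylation at lysine 27 of that histone, H3K27ac, is made mainly by the coactivators p300 and CBP, and marks active promoters as well as active enhancers. In erythroblasts, enhancers bound by GATA1, TAL1 and KLF1 carry H3K27ac over long stretches at the globin and other red cell genes, while the nucleus condenses and transcription narrows to the red cell programme. A region with H3K27ac but without H3K4me3 is therefore usually read as an enhancer, and the combination of both as an active promoter.

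The start sites behind the classes differed in their CpG content. As examples, 3 promoters are given, the 200 bases before a RefSeq start on GRCm38.p6, with every CpG in capitals. Klf3, which encodes a zinc finger repressor induced in erythroid cells, had both marks. Msantd1, a gene model with a DNA-binding-like domain, had H3K27ac alone. It had no promoter H3K4me3 peak in either library, as had 619 of the 2360 genes of that class. Fosb, an AP-1 subunit induced by growth signals, had H3K4me3 alone. All 200 bases lay under peaks of both libraries of each mark called there, and under no peak of the other mark. They are chr5:64803321-64803520 on the plus strand, chr5:34915715-34915914 on the plus strand and chr7:19310046-19310245 on the minus strand.
Klf3: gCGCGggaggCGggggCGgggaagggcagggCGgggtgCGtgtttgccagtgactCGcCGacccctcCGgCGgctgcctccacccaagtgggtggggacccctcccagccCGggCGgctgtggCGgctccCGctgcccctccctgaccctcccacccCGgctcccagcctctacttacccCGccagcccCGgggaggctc
Msantd1: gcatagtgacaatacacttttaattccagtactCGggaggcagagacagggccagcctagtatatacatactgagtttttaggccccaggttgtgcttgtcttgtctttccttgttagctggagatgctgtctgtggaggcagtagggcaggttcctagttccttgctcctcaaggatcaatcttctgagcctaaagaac
Fosb: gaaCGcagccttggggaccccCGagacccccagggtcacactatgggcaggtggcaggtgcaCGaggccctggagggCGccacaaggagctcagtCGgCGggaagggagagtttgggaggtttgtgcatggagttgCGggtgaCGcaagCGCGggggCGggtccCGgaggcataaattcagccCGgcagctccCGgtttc
They hold 17, 1 and 14 CpGs, against a median of 5 in the same window of 32851 RefSeq promoters.

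An adult and an embryonic gene of each globin cluster differed in H3K4me3, and their promoters are shown for that reason. Capitals mark matches on either strand to GATAA (bound by GATA factors), to CCACACCC (by KLF factors), to TGACTCA (by NFE2 and AP-1), to CCAAT (by NF-Y) and to the core promoter motif TATAA. No matches overlapped. Hba-a1 (adult alpha globin, chr11:32283472-32283671, plus strand) and Hbb-bs (adult beta globin, chr7:103827929-103828128, minus strand) had both marks. Hba-x (embryonic zeta globin, chr11:32276400-32276599, plus strand) and Hbb-y (embryonic epsilon globin, chr7:103853208-103853407, minus strand) had H3K27ac alone.
Hba-a1: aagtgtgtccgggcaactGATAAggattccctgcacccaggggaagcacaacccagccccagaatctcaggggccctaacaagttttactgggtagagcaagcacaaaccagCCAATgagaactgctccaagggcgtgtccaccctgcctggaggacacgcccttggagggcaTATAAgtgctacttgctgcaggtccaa
Hba-x: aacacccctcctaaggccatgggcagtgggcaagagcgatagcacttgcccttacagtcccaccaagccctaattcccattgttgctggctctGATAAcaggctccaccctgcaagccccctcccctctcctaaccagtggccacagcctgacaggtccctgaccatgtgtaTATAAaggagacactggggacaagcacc
Hbb-bs: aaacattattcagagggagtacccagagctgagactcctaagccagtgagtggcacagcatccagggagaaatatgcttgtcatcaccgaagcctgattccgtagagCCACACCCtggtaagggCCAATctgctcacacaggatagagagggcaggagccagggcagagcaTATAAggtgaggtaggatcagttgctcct
Hbb-y: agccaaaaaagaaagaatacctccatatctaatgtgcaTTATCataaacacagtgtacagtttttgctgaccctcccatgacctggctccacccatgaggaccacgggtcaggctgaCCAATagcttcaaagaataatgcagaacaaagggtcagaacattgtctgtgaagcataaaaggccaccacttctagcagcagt
All 4 were poor in CpG, with 3, 1, 2 and 1 in the order shown, all below that median of 5. GATAA stood in Hba-a1, Hba-x and Hbb-y, against 18.1% of all RefSeq promoters of this length. CCACACCC stood in Hbb-bs, against 2.72%, CCAAT in Hba-a1, Hbb-bs and Hbb-y, against 29.3%, and TATAA in Hba-a1, Hba-x and Hbb-bs, against 18.5%. None of the 4 held TGACTCA, which 3.66% of promoters hold. H3K27ac peaks covered all 200 bases of each in both libraries. H3K4me3 covered those of Hba-a1 in replicate 1 and those of Hbb-bs in replicate 2. In the other library the Hba-a1 peak started downstream of the window, and peaks lay on either side of it at Hbb-bs.

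The lists were of unequal length. The H3K27ac libraries held 25750 and 21768 peaks over 77.0 and 64.9 Mb, and the H3K4me3 libraries 8841 and 6275 peaks over 16.0 and 9.02 Mb. Mean covered length was 5.68 times that of H3K4me3 for H3K27ac, and the marks did not overlap in either measure, but the exact two-sided permutation p of 0.333 is the smallest that 2 libraries against 2 allow. Widest was an H3K27ac peak of 75600 bp, while no H3K4me3 peak passed 11000 bp. The H3K27ac libraries were sequenced more deeply and compared with other input libraries than the H3K4me3 libraries, so depth, control and mark cannot be told apart in any difference of width or number. H3K4me3 replicate 2 stood apart among the ERY libraries. It called 13.1% of the H3K27ac promoters on chromosome X, against 67.6% to 80.8% on the autosomes. Replicate 1 called 78.8% and 88.8% to 96.3%. Replicate 2 had 31 of its 6275 peaks on that chromosome, and replicate 1 had 177 of 8841. An iMK H3K4me3 library was alike, with 39 of 7578, while the other iMK library of that mark had 350 of 13222. The label was checked against markers. Of 151 genes in 6 erythroid lists 120 had both marks and 22 H3K27ac alone, against 28.0% and 10.8% of all genes. Both marks also stood at 75% of housekeeping, 78.0% of ribosomal protein and 96.7% of cell cycle and replication genes. The share with both marks therefore does not by itself single out erythroid genes. All 24 myeloid markers, 18 of 20 lymphoid, 13 of 14 stromal and endothelial and 16 of 20 megakaryocyte markers had neither. Over all genes 60.6% had neither. The other 4 megakaryocyte markers (20%) had H3K27ac alone, above the 10.8% of all genes.

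In the full lists, H3K4me3 lay almost wholly within H3K27ac, while most H3K27ac lay outside H3K4me3. Mean covered length of the H3K27ac lists was 5.68 times that of the H3K4me3 lists, and its part in this overlap was not tested. Between 88.9% and 94.4% of the peaks of an H3K4me3 library touched a peak of an H3K27ac library, against 21.5% to 35.3% the other way round. Of the 5675 H3K4me3 regions that both libraries held, 97.2% touched such a region of H3K27ac, and 33.9% of the 15950 H3K27ac regions touched H3K4me3. Where both marks stood at a promoter, their peaks differed in width. The median width was 3600 and 3200 bp for H3K27ac in replicates 1 and 2, and 2000 and 1400 bp for H3K4me3. H3K27ac was the wider in 5785 of 6152 genes (94.0%), and the widths of the marks rose together over these genes (Spearman rho 0.608, a description over genes that share their libraries). Both marks reached further into the gene than away from it: from the outermost start, H3K27ac peaks of replicate 1 ran a median of 1160 bp upstream and 1773 bp downstream, and H3K4me3 peaks 729 and 1206 bp. Replicate 2 gave 1109 and 1691 bp for H3K27ac and 516 and 909 bp for H3K4me3. These genes had a median of 5 annotated starts, and any other start lies downstream of the outermost one. What part inner starts had in the longer downstream reach was not tested.

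**Figure D1:**
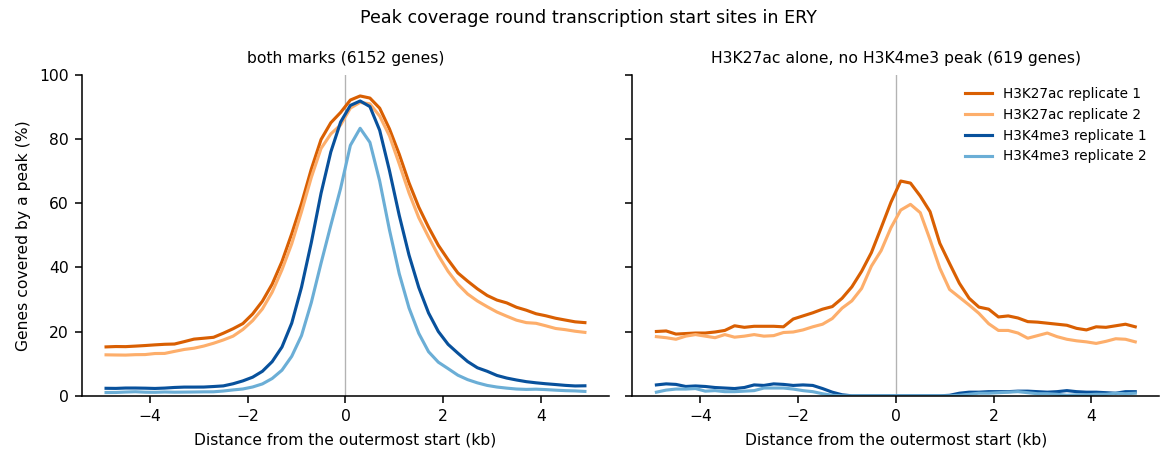
Percent of genes covered by a peak (vertical axis) at each distance in kb from the outermost transcription start (horizontal axis, downstream positive) in each of the 4 ERY libraries, for the 6152 genes with both marks (left) and the 619 genes with H3K27ac and no promoter H3K4me3 peak in either library (right). Just downstream of the start the libraries of both marks covered 78.0% to 92.1% of the genes on the left, and on the right H3K27ac covered 66.9% and 57.8% while H3K4me3 was absent by definition within 1 kb.

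The H3K27ac-alone class was mixed. Of its 2360 genes, 1741 had an H3K4me3 peak in 1 library, which was replicate 1 in 1731, and 619 had none. Without H3K4me3 replicate 2 the classes held 7883 genes with both marks, 629 with H3K27ac alone and 578 with H3K4me3 alone, and without chromosome X 6126, 2188 and 139. With only as many peaks from each list as the shortest holds, they held 3942, 640 and 1947, so the size of each 1-mark class changed with the length of the lists. Of the H3K27ac-alone genes, 484 (20.5%) lay under an H3K27ac peak of either library that also reached another gene's promoter. That promoter had H3K4me3 in at least 1 library, so the call cannot be assigned to either gene. Many calls stood at an inner start: with the outermost start alone, 2042 of the 2360 (86.5%) kept their class, against 5745 of the 6152 with both marks (93.4%).

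Promoters with and without H3K4me3 differed in sequence, which the classes did not use. The ratio of observed to expected CpG, counted 500 bp to each side of the outermost start, had a median of 0.78 in genes with both marks, 0.80 with H3K4me3 alone, 0.37 in the 619 with H3K27ac and no H3K4me3 peak, and 0.31 with neither. The 1741 genes with H3K27ac in both libraries and H3K4me3 in 1 lay between, at 0.69, and the H3K27ac-alone class as a whole had 0.64. Among genes with H3K27ac, the share with H3K4me3 in both libraries was 43.8% where this ratio was under 0.2 and 88.6% where it was 1 or more, and the share with no H3K4me3 peak fell from 38.7% to 0.649%. Of 9 motifs searched over 250 bases before to 50 after the outermost start, on both strands, some differed between the classes and some did not. The ETS motif CCGGAAG stood in 22.8% of promoters with both marks, 6.79% of the 619 and 4.06% with neither (10.8% of all genes). The YY1 motif AAGATGGC gave 6.13%, 1.94% and 1.14% (2.92% of all), and the palindromic NRF1 motif 2.88%, 0.646% and 0.339% (1.22% of all). The GATA motif AGATAA went the other way, with 6.06%, 10.8% and 12.5% (10.2% of all), as did TATAAA with 6.75%, 10.99% and 16.3% (12.7% of all) and TGACTCA with 2.67%, 4.68% and 5.62% (4.59% of all). CCAAT was about as frequent in each, with 40.2%, 38.1% and 38.1%, and so was CCACACCC, with 3.66%, 3.72% and 4.24%. The remaining motif, AGATAA spaced from a CTG, stood in 0.179%, 0.323% and 0.263%. The ETS and NRF1 motifs contain CpG, and median GC content was 59.3% with both marks, 52.5% in the 619 and 51.1% with neither. What part base composition had in the motif shares was not tested. No test was made because genes are not replicates.

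**Figure D2:**
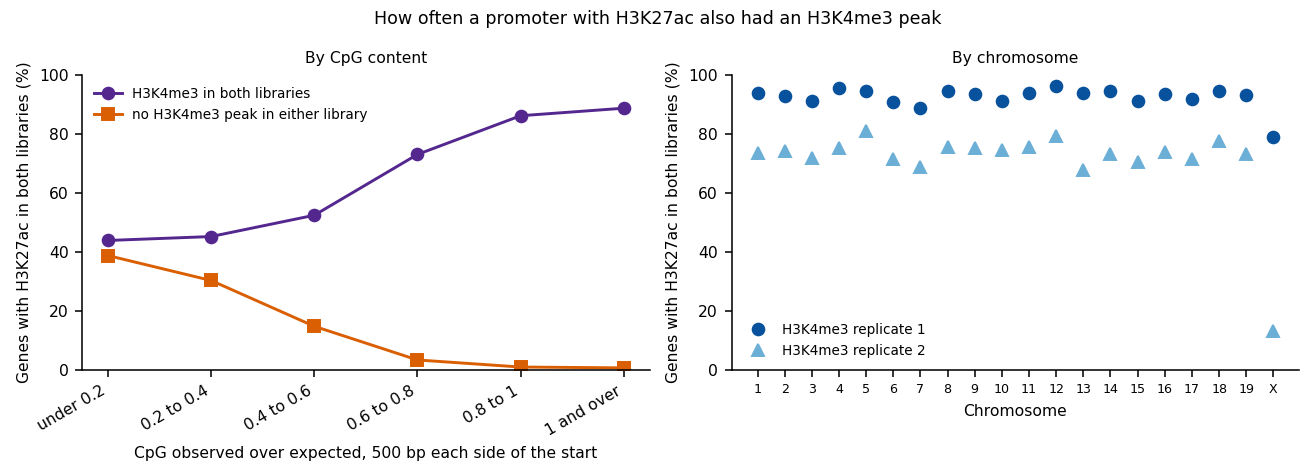
Percent of genes with H3K27ac in both libraries (vertical axes) that also had H3K4me3, by the CpG observed over expected ratio round the start (left) and by chromosome for each H3K4me3 replicate (right). The share with H3K4me3 in both libraries rose from 43.8% to 88.6% over the CpG bins, and on chromosome X replicate 2 stood at 13.1% against 78.8% for replicate 1.

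To compare the marks at each gene with the spread between libraries, the percent of its locus (gene body with 10 kb on each side) covered by peaks was tested with limma's moderated test, Benjamini-Hochberg adjusted. Of 12093 genes covered in any of the 4 libraries, 4754 (39.3%) were higher for H3K27ac and 20 (0.165%) for H3K4me3 at an adjusted p under 0.05, with a median difference of 5.21 percentage points. After scaling the libraries to the same mean coverage, 1011 genes (8.36%) were higher for H3K27ac and 196 (1.62%) for H3K4me3, and the median difference was -0.33, so the share of calls that favoured H3K27ac went from 99.6% to 83.8%. A difference below is in percentage points, H3K27ac minus H3K4me3, with its standard error (SE) and adjusted p from limma. It was above 0 in 11363 of the 12093 genes, and in 5628 after scaling. For 49 of the genes named below it was followed under each alternative: 37 passed, in either direction, and 18 after scaling. Most genes named below were chosen by promoter class and by the size of this difference, so their values describe them and support nothing. Without H3K4me3 replicate 1 or replicate 2 no gene passed (0 calls, with 4755 and 3412 at an unadjusted p under 0.05). The lone library is assumed to vary like those of the other mark in such fits. Without H3K27ac replicate 1 or 2, where the same holds, 3237 and 4576 genes were higher for H3K27ac, and the cause of the loss was not tested.

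Genes of the red cell programme mostly carried both marks, with far longer H3K27ac than other marked genes. Over 6 lists of erythroid genes (globin and heme synthesis, membrane and surface, transcription factors, iron, late remodelling, and antioxidants and enzymes), 120 of 151 had both marks, 22 H3K27ac alone, 1 H3K4me3 alone and 8 neither. H3K27ac coverage was higher in 122 of 151, against the 39.3% of all tested genes, and H3K4me3 in 0. After scaling, 19 were higher for H3K27ac and 2 for H3K4me3, nearer to the 8.36% and 1.62% of all tested genes. The median difference was 31.5 against 5.21 over all tested genes (3.31 against -0.33 after scaling). Among those with both marks, the median peak width at the promoter was 10700 bp for H3K27ac and 3100 bp for H3K4me3. In the other 6032 genes with both marks it was 3400 and 1700 bp. Red cell genes were not alone in this: clustered histone genes with both marks had medians of 16200 and 3600 bp. A peak that reached several neighbouring promoters was counted in full at each.

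**Figure D3:**
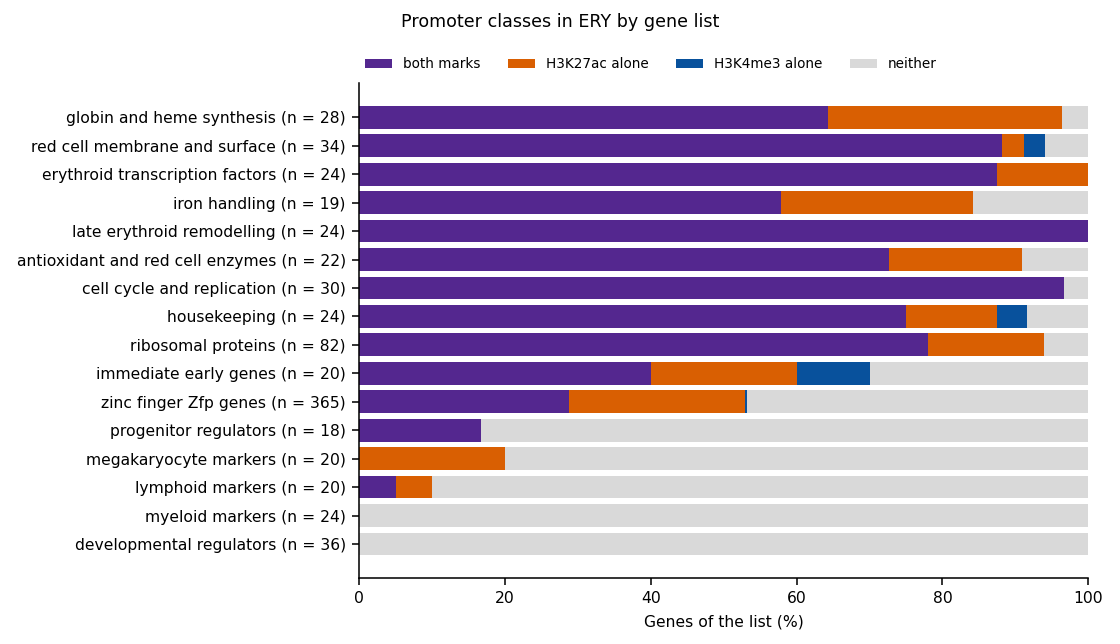
Percent of the genes of each list (horizontal axis) in the 4 promoter classes of ERY, with the number of genes in brackets. The late erythroid remodelling list lay wholly in the class with both marks, iron handling had 26.3% and the joint list of globin and heme synthesis 32.1% with H3K27ac alone, and developmental regulators and myeloid markers had no mark.

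In the globin clusters H3K27ac ran through whole gene groups and H3K4me3 stood in short peaks. In the alpha globin cluster, H3K27ac replicate 1 had 1 peak of 75600 bp, chr11:32226401-32302000 (mm10), over the body of Nprl3, whose introns hold the alpha globin enhancers, and over Hba-x, Hba-a1, Hbq1b, Hba-a2 and Hbq1a. Replicate 2 covered the same stretch with peaks that included 42200 and 24800 bp. H3K4me3 in both libraries was at the starts of Hba-a1 (2000 and 1000 bp), Hbq1b (3800 and 800 bp), Hba-a2 (3000 and 800 bp) and, at the far end, the DNA repair gene Mpg (1200 and 600 bp). At the start of Nprl3 and at Hbq1a it was in replicate 1 alone, with 1400 bp each, and at Hba-x it was in neither. The genes of each pair Hba-a1 and Hba-a2, and Hbq1a and Hbq1b, are near-identical copies, so reads may be split or shared between them.

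In the beta globin cluster, Hbb-bs lay under H3K27ac peaks of 7000 and 8200 bp, and Hbb-bt, the other adult gene, under 10200 and 9600 bp. H3K4me3 peaks at Hbb-bs spanned 1400 and 2200 bp, and at Hbb-bt 3200 bp in replicate 1 and 600 and 400 bp in replicate 2. The embryonic genes Hbb-bh1 and Hbb-bh2 shared H3K27ac peaks of 5200 and 5400 bp, and Hbb-y lay under 8400 and 31600 bp. None of these 3 had an H3K4me3 peak at its promoter in either library. Upstream of Hbb-y, on the side of the locus control region that drives the cluster, H3K27ac replicate 1 held a further 22400 bp, and H3K4me3 stood there in replicate 1 alone, with peaks of 1400 and 1600 bp and folds of 1.998 and 1.926. Of 1092 olfactory receptor genes 5 had H3K27ac alone, and Olfr67 and Olfr68, named after their values were seen, lie just beyond Hbb-bt.

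**Figure D4:**
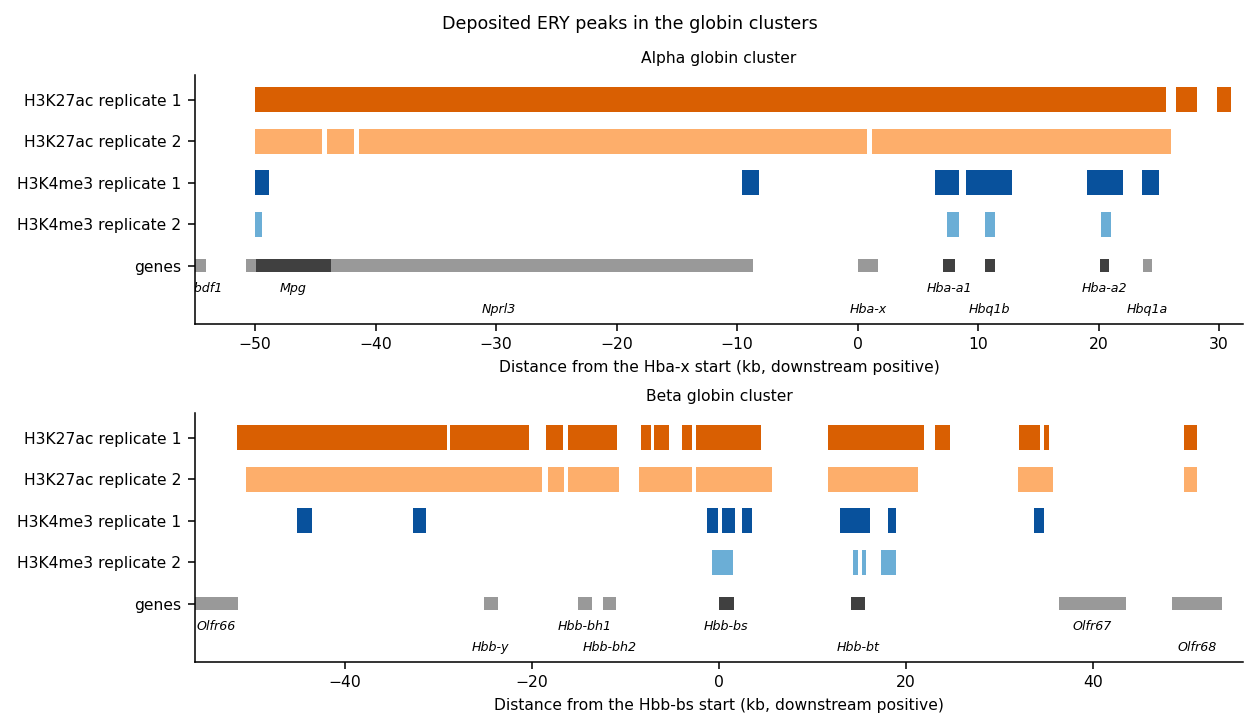
Peaks of each ERY library (coloured bars, 1 row per library) and genes (bottom row, dark where the promoter had both marks) in the alpha and beta globin clusters, by distance in kb from the start of Hba-x and of Hbb-bs, downstream positive. H3K27ac filled 75600 bp of the alpha cluster in replicate 1, while H3K4me3 formed separate peaks of at most 3800 bp that left out Hba-x, Hbb-y, Hbb-bh1 and Hbb-bh2.

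Locus coverage put numbers on this. At Hba-a1, H3K27ac covered 100% and 98.1% of the locus and H3K4me3 27.7% and 8.59%, a difference of 80.9 (SE 7.91, adjusted p = 0.0113). Hba-x, under the same peaks, had 100% and 98.2% against 28.2% and 8.29%, a difference of 80.9 (SE 8.16, adjusted p = 0.0115). The H3K4me3 peaks in its locus stood at neighbouring genes. Hbb-y had 87.0% and 95.3% against 6.52% and 0%, a difference of 87.9 (SE 5.35, adjusted p = 0.0111). At Hbb-bh1, H3K27ac covered 68.4% and 85.1% and H3K4me3 0% in both, a difference of 76.8 (SE 7.03, adjusted p = 0.0112). The marks did not overlap at any of the 4 genes. After scaling, Hbb-y and Hbb-bh1 still passed (adjusted p = 0.0384 and 0.0393), and Hba-a1 and Hba-x did not (adjusted p = 0.168 and 0.182).

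**Figure D5:**
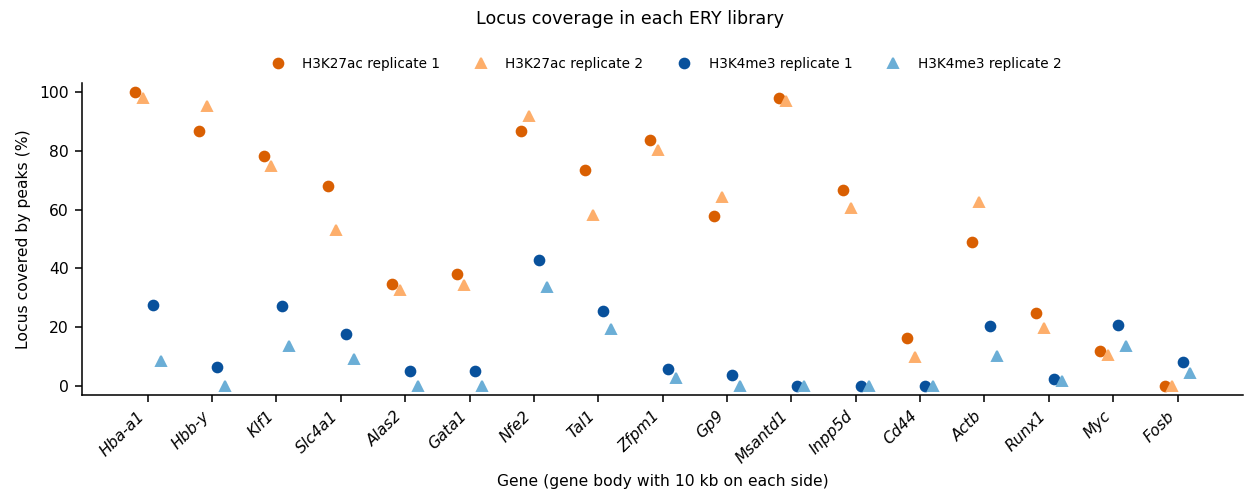
Percent of each locus (gene body with 10 kb on each side, vertical axis) covered by peaks in the 4 ERY libraries, for 17 genes. H3K27ac lay above H3K4me3 at every gene shown but Myc and Fosb, from 97.7 points apart at Msantd1 to 6.21 points the other way at Fosb.

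The list of globin and heme synthesis genes mostly had both marks. Of its 28 genes, 18 had both marks, 9 H3K27ac alone (the embryonic globins Hba-x, Hbb-y, Hbb-bh1 and Hbb-bh2, and 5 genes with H3K4me3 in 1 library) and 1, the heme-degrading Hmox1, neither, and without H3K4me3 replicate 2 the first counts were 23 and 4. H3K27ac coverage was higher in 23 of 28, against 39.3% of all tested genes. After scaling 3 were higher and 1 lower, against 8.36% and 1.62%. Alas2, the X-linked enzyme of the first step, had H3K27ac peaks over its start of 8000 and 7400 bp with folds of 14.4 and 17.6. H3K4me3 covered its start in replicate 1 with 2200 bp and a fold of 6.51, and in replicate 2 not at all. Its locus was covered 34.7% and 32.8% against 5.09% and 0%, a difference of 31.2 (SE 2.89, adjusted p = 0.0112).

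Of 24 erythroid transcription factors, 21 had both marks, 3 H3K27ac alone and none neither. H3K27ac coverage was higher in 22, against 39.3% of all tested genes. After scaling 6 were higher and 1 lower, against 8.36% and 1.62%. Without H3K4me3 replicate 2 all 24 had both marks. Klf1, which activates adult beta globin, had 78.2% and 74.8% of its locus under H3K27ac and 27.4% and 13.7% under H3K4me3, a difference of 55.95 (SE 6.35, adjusted p = 0.0125). Nfe2, the large subunit of the factor that binds the globin control regions, had 86.7% and 92.0% of its locus under H3K27ac and 43.0% and 33.8% under H3K4me3. Its difference of 51.0 (SE 5.24, adjusted p = 0.0116) was -35.2 after scaling (adjusted p = 0.158). Tal1, a basic helix-loop-helix partner of GATA1, had 73.6% and 58.2% against 25.5% and 19.2%, a difference of 43.6 (SE 7.07, adjusted p = 0.0210) that was -11.8 after scaling (adjusted p = 0.288).

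Zfpm1, the GATA1 cofactor FOG1, had H3K27ac peaks of 51600 and 50800 bp from its start, and H3K4me3 of 3200 and 2000 bp there. Its coverage was 83.6% and 80.2% against 5.86% and 2.66%, a difference of 77.7 (SE 3.97, adjusted p = 0.0111) that also passed after scaling (adjusted p = 0.0332). Bcl11a, a repressor of embryonic globin genes, had 63.4% and 62.4% against 7.06% and 5.86%, a difference of 56.4 (SE 3.32, adjusted p = 0.0111, and 0.0447 after scaling). A stretch of 400 bp in its intron, 1331 bp from the nearest start, lay under all 4 libraries. Gfi1b, a repressor needed for red cell and platelet formation, had 76.1% and 68.1% against 16.0% and 10.5%, a difference of 58.9 (SE 5.05, adjusted p = 0.0112). Klf3 and Ldb1 were the members of this list that did not pass. Klf3 had H3K4me3 peaks at its starts that summed to 12200 and 5800 bp beside H3K27ac of 14200 and 14000 bp. Its coverage was 28.7% and 28.3% against 24.6% and 12.9%, a difference of 9.71 (SE 4.997, adjusted p = 0.190) that was -24.7 after scaling (adjusted p = 0.0381). Ldb1, which bridges GATA1 complexes and was named after its values were seen, gave 18.4 (adjusted p = 0.0908), and -2.37 after scaling.

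Gata1, the X-linked master regulator, was also placed with H3K27ac alone and had H3K4me3 in replicate 1. It had H3K27ac peaks of 12800 and 11000 bp starting 1.67 and 3.07 kb past its outermost start, with further ones of 2000 and 2400 bp nearer to it, and an H3K4me3 peak of 2000 bp some 10.3 kb past it in replicate 1 alone. Its locus was covered 38.1% and 34.5% against 5.15% and 0%, a difference of 33.8 (SE 3.195, adjusted p = 0.0112). Among housekeeping genes, the X-linked purine salvage gene Hprt had 1.12% of its locus under H3K27ac in both libraries and 2.24% and 0% under H3K4me3. Both were called for H3K4me3 by replicate 1, so that without replicate 2 both fell in the class with both marks.

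Of 34 membrane and surface genes, 30 had both marks. H3K27ac coverage was higher in 30 (6 after scaling), against 39.3% of all tested genes (8.36% after scaling). Slc4a1, the anion exchanger band 3, had 68.0% and 53.0% against 17.7% and 9.10%, a difference of 47.1 (SE 7.18, adjusted p = 0.0187). Its H3K4me3 peaks of 5400 and 3400 bp began 0.603 and 1.603 kb past the outermost start. Aqp1, the water channel, had 88.9% and 78.3% against 20.5% and 15.6%, a difference of 65.5 (SE 5.65, adjusted p = 0.0112). Tspo2, a sterol carrier of erythroblast nuclei, had 90.7% and 78.4% against 16.1% and 3.39%, a difference of 74.8 (SE 7.44, adjusted p = 0.0114). Cd44, the sort marker, lay in the H3K27ac-alone class: its H3K27ac coverage of 16.3% and 9.77% met no H3K4me3 peak in the whole locus, a difference of 13.03 (SE 2.64, adjusted p = 0.0321). Dmtn, a skeleton protein, was the only one with H3K4me3 alone, since H3K27ac reached its promoter in 1 library. It had 5.84% and 18.3% against 14.2% and 9.86%, and the marks overlapped.

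The remaining erythroid lists gave smaller differences. All 24 genes of late remodelling (clearance of organelles and chromatin condensation) had both marks, and H3K27ac was higher in 18. Of 19 iron genes, 11 had both marks, 5 H3K27ac alone and 3 neither (Trf, Hamp and Hfe, genes of the liver and other tissues), and H3K27ac was higher in 11. Fth1, the ferritin heavy chain, had 73.5% and 75.1% against 13.1% and 12.2%, a difference of 61.6 (SE 3.66, adjusted p = 0.0111). Steap3, the endosomal ferric reductase, had 39.6% and 34.5% against 4.71% and 0%, a difference of 34.7 (SE 3.39, adjusted p = 0.0113). Of 22 antioxidant and red cell enzyme genes, 16 had both marks and 18 were higher for H3K27ac. Car1 (carbonic anhydrase 1) and Pklr (red cell pyruvate kinase) had no promoter H3K4me3 peak. Pklr had 22.2% and 22.8% against 0% in both H3K4me3 libraries, a difference of 22.5 (SE 1.57, adjusted p = 0.0111, and 0.0381 after scaling). After scaling, 3 late remodelling genes, 0 iron genes and 1 antioxidant gene passed for H3K27ac, and 0 of these 3 lists for H3K4me3. Over all tested genes, 39.3% were higher for H3K27ac, and 8.36% after scaling.

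The 619 genes with H3K27ac and no H3K4me3 peak were led by loci that H3K27ac filled. Msantd1 had peaks of 46800 and 58000 bp over its start and 98.2% and 97.1% of its locus covered, with no H3K4me3 peak in either library, a difference of 97.7 (SE 3.70, adjusted p = 0.0111). Inpp5d, the phosphatase SHIP1 that dampens cytokine signalling, had 66.9% and 60.7% against 0% in both, a difference of 63.8 (SE 3.85, adjusted p = 0.0111). Its peaks lay at inner starts, not at the outermost one. Col5a1, a fibrillar collagen chain, had 51.9% and 45.1% against 1.502% and 0%, a difference of 47.7 (SE 3.66, adjusted p = 0.0111). All 3 also passed after scaling (adjusted p = 0.0328 for each). These were chosen for the length of their H3K27ac, so the differences describe them and support nothing.

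All 4 megakaryocyte markers that had a mark belonged to this class, and none had a promoter H3K4me3 peak in either library. They were named for that class, which rests on the same peaks, so the differences of these 4 describe them and support nothing. Gp9, a subunit of the platelet receptor for von Willebrand factor, had 57.9% and 64.4% of its locus under H3K27ac and 3.69% and 0% under H3K4me3, a difference of 59.3 (SE 4.12, adjusted p = 0.0111, and 0.0381 after scaling). Gp1ba, another subunit, had 67.4% and 70.0% against 15.0% and 7.86%, a difference of 57.2 (SE 4.48, adjusted p = 0.0111, and 0.0833 after scaling). Vwf had 25.8% and 22.3% against 0.5003% and 0%, a difference of 23.8 (SE 2.07, adjusted p = 0.0112). Itga2b, the gene of CD41, had 16.8% and 3.80% against 0% in both, a difference of 10.3 that did not pass (SE 4.87, adjusted p = 0.165). The other 16 markers, Pf4, Ppbp and Itgb3 among them, had neither mark, and what part platelet-lineage cells in the sort or neighbouring genes had in these calls was not tested. Of the lymphoid markers, Lck, a T cell kinase, had both marks, with H3K27ac peaks of 2400 and 1600 bp and H3K4me3 peaks of 1000 and 800 bp. Its locus was covered 15.5% and 10.6% against 5.30% and 6.18%, a difference of 7.29 (SE 2.29, adjusted p = 0.0766) that was -6.39 after scaling. Blnk (a B cell adaptor) and Tek (an endothelial receptor) had short H3K27ac peaks of 1400 and 1600 bp and of 1200 and 800 bp.

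With the full lists H3K4me3 alone was rare, while with equal numbers of peaks that class held 1947 genes and H3K27ac alone 640. Of the 141 genes from the full lists, 99 had H3K27ac in 1 library and 42 in none. Of the 42, 12 had an H3K27ac peak within 5000 bp in either library, and 31 (73.8%) had both marks in iMK, against 34.7% of all genes. With H3K27ac replicate 1 as the only judge of that mark, 66 of the 141 were left. Fosb had H3K4me3 peaks of 2200 and 1200 bp over its start. H3K27ac covered 0% of its locus in both libraries and H3K4me3 8.04% and 4.39%, a difference of -6.21 (SE 1.47, adjusted p = 0.0435). Fam216a had 2.16% and 2.24% against 7.99% and 6.55%, a difference of -5.08 (SE 1.02, adjusted p = 0.0314). Nudcd2, named after its values were seen, had the lowest adjusted p of the 20 genes with more H3K4me3, with 0% in both H3K27ac libraries and 10.6% in both of H3K4me3 (difference -10.6, SE 0.958, adjusted p = 0.0112). Of the 20, 12 were in this class and 8 had neither mark at their promoter. In Hmmr, a spindle gene beside Nudcd2, the difference was -2.50 (SE 2.05, adjusted p = 0.348), and in the deubiquitinase Usp46 -2.67 (SE 1.605, adjusted p = 0.245). Zmiz1, a SUMO ligase cofactor, had H3K4me3 alone at its starts and yet more H3K27ac over its locus, 15.2% and 9.404% against 1.49% and 0.439% (difference 11.3, SE 2.44, adjusted p = 0.0362). The genes of this class were chosen by the same peaks that give the coverage, so their differences describe them and support nothing.

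Genes of growth mostly had both marks. Of 30 cell cycle and replication genes, 29 had both marks, and H3K27ac coverage was higher in 15 of 29 tested, against 39.3% of all tested genes (1 higher and 3 lower after scaling). Ccnd3, the cyclin that sets red cell size, had 81.9% and 81.0% against 7.15% and 4.19%, a difference of 75.8 (SE 3.77, adjusted p = 0.0111, and 0.0376 after scaling). Of 82 ribosomal protein genes 64 had both marks and 30 of 79 tested were higher for H3K27ac, close to that share. Of 67 clustered histone genes 51 had both marks, with a median promoter peak width of 16200 bp for H3K27ac and 3600 bp for H3K4me3. Neighbours under the same peak each counted its full width, so these are not separate values. Of the 67, 46 were higher for H3K27ac, against 39.3% of all tested genes. After scaling 0 were higher for H3K27ac and 6 for H3K4me3. Of 24 housekeeping genes, 18 (75%) had both marks, against 28.0% of all genes, and 12 of 23 tested were higher for H3K27ac, against 39.3% of those tested. Actb had 48.9% and 62.6% against 20.3% and 10.2%, a difference of 40.5 (SE 7.09, adjusted p = 0.0243). Of 365 zinc finger genes of the Zfp family, 105 (28.8%) had both marks, close to the 28.0% of all genes, 88 (24.1%) had H3K27ac alone against 10.8%, and 171 (46.8%) had neither against 60.6%.

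Immediate early genes were spread over all 4 classes. Of 20, 8 had both marks, 4 H3K27ac alone, 2 H3K4me3 alone and 6 neither, and 6 of 18 tested were higher for H3K27ac and 1 for H3K4me3 (0 and 2 after scaling). The 6 lie near the 39.3% of all tested genes. Junb and Btg2 had long stretches of both. Btg2, an antiproliferative gene, had 88.2% and 84.0% against 27.6% and 23.4%, a difference of 60.6 (SE 4.24, adjusted p = 0.0111) that was -6.99 after scaling (adjusted p = 0.666). Junb had 78.06% in both H3K27ac libraries against 44.6% and 22.3%, a difference of 44.6 (SE 8.95, adjusted p = 0.0314) that was -25.8 after scaling (adjusted p = 0.111). Fos had H3K27ac peaks of 1200 and 800 bp at its promoter and no H3K4me3 peak there, with a difference of 3.85 (SE 2.13, adjusted p = 0.214).

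Of 18 progenitor regulators only Runx1, Myc and Myb had a mark, and all 3 had both. Myc, which falls as erythroblasts mature, had more H3K4me3 than H3K27ac in every pairing of libraries, 12.01% and 10.4% under H3K27ac against 20.8% and 13.6%, a difference of -6.00 that did not pass (SE 3.24, adjusted p = 0.207) but did after scaling (-33.4, adjusted p = 0.0332). With the stricter fold the difference was 0.80. At Myb, H3K4me3 peaks of 3600 and 3000 bp stood beside H3K27ac of 1600 bp in both libraries, and the difference was 2.68 (SE 2.23, adjusted p = 0.354) and -8.97 after scaling (adjusted p = 0.0954). Runx1 had 24.9% and 19.7% against 2.21% and 1.72%, a difference of 20.4 (SE 2.52, adjusted p = 0.0138). All 36 developmental regulators, 39 Hox genes and 49 keratin genes had neither mark.

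Away from annotated starts, H3K4me3 was seldom found. Of the 6668 distal H3K27ac regions, 98 (1.47%) also held H3K4me3, against 57.2% of the 9282 regions at starts, and of 159 distal H3K4me3 regions 139 lay in H3K27ac. Without H3K4me3 replicate 2 there were 327. Features of promoters were more frequent among the 98. RefSeq placed a transcript start within 1 kb of 30 (30.6%), against 6.99% of the 6570 distal regions with H3K27ac alone, and a tRNA gene within 1 kb of 16 (16.3%), against 0.411%. The CpG ratio had a median of 0.55 against 0.18, and was 0.6 or more in 42.9% against 1.005%. In the central 1000 bp, AGATAA stood in 36.7% against 53.9%, and CCGGAAG in 19.4% against 4.40%. In iMK, both libraries had H3K27ac at 69.4% of the 98 against 14.6% of the others, and H3K4me3 at 34.7% against 0.974%.

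Among the 10 regions with the longest H3K4me3, one 6600 bp wide on chromosome 3 lies 21572 bp from the nearest protein-coding start, that of the iron regulator gene Hfe2, and overlaps tRNA genes. H3K4me3 covered 3800 and 3600 bp of it and H3K27ac 5400 and 6600 bp. Its central 300 bases (chr3:96500151-96500450, GRCm38, plus strand) show a tRNA-His gene in capitals (96500366 to 96500437), transcribed by RNA polymerase III.
Hfe2 region: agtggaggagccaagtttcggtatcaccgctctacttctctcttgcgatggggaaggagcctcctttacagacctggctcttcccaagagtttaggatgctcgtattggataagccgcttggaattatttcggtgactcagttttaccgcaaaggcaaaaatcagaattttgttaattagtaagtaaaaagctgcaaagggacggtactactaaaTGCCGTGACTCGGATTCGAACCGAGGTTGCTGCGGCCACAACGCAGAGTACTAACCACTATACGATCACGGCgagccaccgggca
All 300 bases lay under peaks of all 4 libraries. Other such regions stood in introns of Tom1l1 (2900 bp of H3K4me3 on average), Itpr2 (2500 bp) and Kdm6b (2500 bp), the last 2 at a RefSeq start.

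Within wide H3K27ac, all 4 libraries overlapped away from starts more often in erythroid genes. Of 235 segments over 1 kb from any start that all 4 libraries covered, 112 lay in introns. Such a segment stood in the body of 25 of the 120 erythroid genes with both marks (20.8%), against 89 of the other 6032 (1.48%), but the erythroid genes also had wider peaks. Among them were Car2 and Rhd (2 segments each), Gfi1b, Stom, Gclm, Tmod1, Klf3, Ube2h, Kel, Hbb-bt, Sox6, Uros, Ank1, Lyl1, E2f4, Slc25a38, Foxo3, Ikzf1, Bcl11a, Ube2o, Ncoa4, Slc25a37, Rb1 and Fech, counted after their values were seen. The segment in Kel, the Kell blood group gene, chr6:41700201-41702600, was 2400 bp long and 1033 bp from the nearest start, though a RefSeq transcript starts 488 bp from it. Its central 300 bases (chr6:41701251-41701550) are shown on the plus strand, with the same motifs in capitals, as an example of H3K4me3 inside a gene.
Kel segment: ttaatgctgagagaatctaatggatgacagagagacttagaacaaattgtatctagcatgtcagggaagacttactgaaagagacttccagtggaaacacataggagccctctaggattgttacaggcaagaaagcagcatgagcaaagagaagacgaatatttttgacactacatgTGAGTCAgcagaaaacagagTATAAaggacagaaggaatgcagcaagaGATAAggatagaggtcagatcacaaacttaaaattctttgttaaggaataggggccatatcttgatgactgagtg
It holds 1 CpG, with matches to the GATA, NFE2 and TATA letters given above. Segments were also found in Gfi1b (chr2:28618201-28620000) and Car2 (chr3:14888601-14891400), 1945 and 1962 bp from the nearest start.

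The classes of ERY carried over to the other cell type unevenly. Of the genes with both marks in ERY, 85.7% had both in iMK, against 34.7% of all genes. Of those with H3K27ac alone 47.1% had both there, 35.3% H3K27ac alone (12.2% of all genes) and 17.2% neither, and of those with H3K4me3 alone 66.7% had both. Of those with neither, 82.1% had neither in iMK, against 52.4% of all genes. For the difference between the marks, the test of ERY against iMK over all 8 libraries found 2038 of 15159 genes (13.4%) with more excess of H3K27ac in ERY and 550 (3.63%) with less. After scaling the counts were 904 (5.96%) and 651 (4.29%), so the share of calls with more excess in ERY went from 78.7% to 58.1%.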

How the data were processed

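H3K27ac and H3K4me3 were profiled by ChIP-seq in sorted bone marrow cells, and the values used were the deposited peak lists, 1 per library, with no reads or signal. For each peak the authors deposited its position on mm10, a fold over control (a ratio), a p-value and a q-value. Tools named in the submitters' notes are SICER 1.1 and Bowtie 1.0.0, while the study's methods name MACS for peaks and another Bowtie version and kept reads that map to several places. Which caller made these lists is not stated, and peak widths depend on it. Peak edges lay on multiples of 200 bp. The 10 input libraries were not used. Read depth per library is unknown from these lists, so no interval for counting error is given, and a gene without a peak may still carry the mark.

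Genes and start sites were those of GENCODE vM21, and each percent of a locus was computed with Python 3.11.15. Coverage was tested with limma 3.58.1 (R 4.3.3, moderated test with trend) over genes with any coverage. The self-test passed on simulated data checked that fitted differences were on average close to the planted ones, not the rate of false calls. With 2 libraries per mark and no numbering in the labels, replicate numbers follow deposit order and pair nothing. The methods call replicates biological, from separate groups of mice or separate sorted portions of the same mice. Samples were grouped by cell type and mark from the labels.

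The members and gene lists were chosen with earlier results of these data known. Genes were named by rule: up to 4 members of each list and promoter class by size of difference, the 10 genes of each marked class with the longest peaks, the 10 distal regions with the longest H3K4me3, Cd44 and the defining erythroid markers. Some genes that the rule names are not reported here. Other genes are said to be named after their values were seen. Alternatives left out each library, chromosome X or weak peaks, took equal numbers of peaks, other promoter windows or start sites, scaled libraries, a log2 scale with 200 bp added, a narrower locus, other filters, and no trend.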

Additional observations from a re-analysis of the deposited data

Results flagged for a closer look

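The difference between the marks in ERY was set against that in iMK by the limma interaction test over 8 libraries (Benjamini-Hochberg adjusted, values in percentage points of the locus, ERY difference minus iMK difference), and of 49 genes named in the report 29 passed. Most of these genes were named for the size of their difference in ERY, which enters the test, so the values describe them and support nothing.

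Among globin and heme genes the value was 80.9 for Hba-a1 (adjusted p = 0.00436), 79.0 for Hba-x (adjusted p = 0.00609), 87.9 for Hbb-y (adjusted p = 0.00231), 76.8 for Hbb-bh1 (adjusted p = 0.00304) and 31.2 for Alas2 (adjusted p = 0.00307). For membrane genes it was 47.1 for Slc4a1 (adjusted p = 0.0131), 65.5 for Aqp1 (adjusted p = 0.00310) and 74.8 for Tspo2 (adjusted p = 0.00398). The iron genes Fth1 and Steap3 gave 44.9 (adjusted p = 0.0126) and 33.4 (adjusted p = 0.00426), and the enzyme genes Car1 and Pklr 29.4 (adjusted p = 0.00568) and 22.5 (adjusted p = 0.00233).

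Among transcription factors it was 33.8 for Gata1 (adjusted p = 0.00315), 57.2 for Klf1 (adjusted p = 0.0282), 46.4 for Tal1 (adjusted p = 0.0232), 66.2 for Gfi1b (adjusted p = 0.00544), 47.7 for Bcl11a (adjusted p = 0.00238) and 77.8 for Zfpm1 (adjusted p = 0.00226). The megakaryocyte markers Gp9, Gp1ba and Vwf gave 55.8 (adjusted p = 0.00233), 57.3 (adjusted p = 0.0172) and 23.3 (adjusted p = 0.00382), and the B cell marker Blnk 6.89 (adjusted p = 0.00573). For Ccnd3 it was 67.2 (adjusted p = 0.00359) and for Btg2 53.0 (adjusted p = 0.0132). The genes chosen for their long H3K27ac gave 97.7 for Msantd1 (adjusted p = 0.00226), 47.1 for Inpp5d (adjusted p = 0.00344) and 47.1 for Col5a1 (adjusted p = 0.00233). The other way went Zmiz1, with -16.0 (adjusted p = 0.0356), from a difference of 27.3 in iMK against 11.3 in ERY, and Nudcd2, with -11.8 (adjusted p = 0.0183). The remaining 20 genes, Nfe2, Stom, Klf3, Myc, Fosb and Cd44 among them, did not pass.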

How the results depend on the processing

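No paired analysis was possible because the labels do not number the replicates. Leaving out each library in turn gave 6162 to 7883 genes with both marks, 629 to 2911 with H3K27ac alone, 66 to 578 with H3K4me3 alone and 12734 to 13262 with neither, 6668 to 14412 distal H3K27ac regions and 101 to 327 of them with both marks. Genes with higher coverage for H3K27ac went from 0 to 4576 and for H3K4me3 from 0 to 19, and for the interaction with iMK from 727 to 4973 and from 165 to 1514. The calls fell to 0 without H3K4me3 replicate 1 or 2 (4755 and 3412 genes at an unadjusted p under 0.05).

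With equal numbers of peaks there were 3942 genes with both marks, 640 with H3K27ac alone, 1947 with H3K4me3 alone, 1065 distal regions, 44 of them with both, and a ratio of covered length of 3.43, an alternative for the ratio chosen after seeing the data. With peaks over most of a window 3821 genes had both marks. With peaks below the lower quartile of folds removed there were 214 genes with H3K4me3 alone, 3881 distal regions, 34 with both, and 13 genes higher for H3K4me3. Distal regions with both marks numbered 185 against protein-coding starts only and 235 as segments in all 4 libraries. Scaling gave 1011 and 196 calls and 904 for the interaction, no filter 2464 and 12, and no trend 6 for H3K4me3.

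Scaling reversed the difference at Nfe2 (-35.2), Tal1 (-11.8), Myb (-8.97), Junb (-25.8), Klf3 (-24.7), Btg2 (-6.99), Lck (-6.39) and Ldb1 (-2.37), and the interaction at Nfe2 (-18.5), Tal1 (-4.16), Myc (-11.9), Runx1 (-5.68), Junb (-22.1), Stom (-4.68), Btg2 (-4.28), Lck (-0.15) and Dmtn (-17.0). Without weak peaks Myc gave 0.80. Leaving out a library in turn gave both signs for the difference at Dmtn (-6.21 to 6.21) and for the interaction at Myc (-3.60 to 4.40), Runx1 (-0.94 to 5.19) and Dmtn (-5.11 to 7.30), none of which had passed. The cause was not tested. Of 1026 values for single genes under alternatives, 777 kept direction and side of the threshold, 197 lost the call, 23 gained it and 29 reversed. Peak lists without reads limit every result: a missing peak may reflect depth, and the marks differed in depth and control.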
